A study of Mus musculus with 12 samples.

Results

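The genes described here are Mt1, Mt2, Sbspon, Clca3a1, Gpr183, Dsg2, Fhl1 and Alcam, 8 genes grouped as ageing genes of the hematopoietic stem cell (HSC) whose chromatin accessibility was listed as higher in aged cells. Accessibility was read from ATAC-seq, in which a transposase cuts open DNA, as the summits of peaks called in each library. A region belonged to a gene when it held a summit with a score of at least 3 in any of 12 lists (the score is the -log10 of the peak caller's q-value), when windows of 250 bp on each side of such summits were merged, and when the merged window touched the GENCODE gene body or its 10 kb flanks in mouse build mm10. This gave 33 regions of the 71006 in the whole catalogue, and 17 of the 33 were called often enough to be tested among 37893 regions. The genes were chosen by their rank difference between aged and young lists of these same libraries, so every aged-against-young value of theirs is a description without a test, and for them only the comparisons between genotypes were tested.

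There were 4 groups of 3 libraries. Mice of 3 months gave the groups Young WT and Young Mlkl-/-, and mice of 18 months gave Aged WT and, without the gene, Aged Mlkl-/-, all of strain C57BL/6. The Mlkl-/- mice lack MLKL, the pseudokinase that executes necroptosis and whose role in HSC ageing the study examined. HSCs were sorted from bone marrow as Lin-/cKit+/Sca1+/Flk2-/CD48-/CD150+, and each library pooled cells of several mice, with more mice per young pool than per aged pool. The labels call the libraries replicates and give no sex for the pooled animals.

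The genes have different roles. Mt1 and Mt2 encode metallothioneins, small cysteine-rich proteins that bind zinc and copper and buffer oxidants. Their transcription is switched on by the zinc-sensing factor MTF1 through metal response elements (MREs) close to the start. Sbspon encodes a secreted protein with somatomedin B and thrombospondin domains, Clca3a1 a member of the chloride channel accessory family, and Gpr183 a receptor that guides immune cells along oxysterol gradients. Fhl1 encodes a scaffold protein of LIM domains known from muscle. Alcam and Dsg2 encode adhesion molecules, an immunoglobulin-family protein that binds CD6 and a desmosomal cadherin. In ATAC-seq an open promoter or enhancer of such a gene appears as a peak, and a peak can be open without the gene being transcribed.

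The lists held between 35714 and 56368 summits of score 3 or more in the young libraries and between 47032 and 61495 in the aged ones, ranges that overlapped but were higher in aged lists. Values are therefore given as the rank of a region among all regions called in its own list, with 1 at the top. The young lists called between 28428 and 46823 regions and the aged lists between 38931 and 48959. For differences, each list was cut to its 35714 best summits and ranks were turned into normal scores, on which a region not called lies between -0.57 and -0.52 and a difference measures relative rank rather than accessibility itself. The lists hold no read counts, so depth is unknown. As a check on the cells, 4 of 10 HSC markers (Hlf, Mecom, Kit and Tal1) had a summit within 1 kb of a start in all 12 lists, whereas 5 of 6 granulocyte and monocyte markers, 4 of 6 B cell markers and 4 of 6 T and NK cell markers had one in no list. Slamf1, which encodes CD150, had none in any list. A summit in all 12 lists was also found at 2 of 6 erythroid markers (Klf1 and Epor) and 1 of 6 B cell markers (Ebf1). The same held for 3 of 6 megakaryocyte markers (Pf4, Gp9 and Itga2b). Of 6 stromal and endothelial markers, 0 had one in all 12 lists and 1 (Cdh5) had one in no list. Calls at these markers were 13 of 36 possible in young lists and 18 of 36 in aged lists. HSC markers had 41 of 60 and 45 of 60. Summits at starts of Y-linked genes were present in 3 of 6 young and 0 of 6 aged lists, at 2, 2 and 5 summits in the lists that had any, and the other 3 young lists had 0 like the aged ones. The part of list length and of Y-linked summits in the age differences was not tested. With each as a covariate, the number of regions with a higher aged estimate is given below. The range of differences is given for list length, and for Y-linked summits only the age difference whose sign turned.

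Of the 33 regions, 9 were called in all 12 deposited lists and 7 in a single list. More aged than young lists called 20 of them (60.6%), 3 were called in more young lists and 10 in as many of each, where the catalogue as a whole had 47.1% and 16.6% for the first and second. There were 9 regions with calls in aged lists only (27.3%) and 2 in young lists only (6.06%), where the catalogue had 21.1% and 8.85%. Among the 17 tested regions the mean normal score was higher in aged lists for 16, and it was higher for 49.0% of all tested regions. The median difference, aged minus young, was 0.46 over the 17 regions and -0.0073 over all regions tested. In 3 regions, the starts of Mt1 and Clca3a1 and an intron of Fhl1, all 6 aged lists lay above all 6 young lists on equal-length lists, which held for 2.12% of the regions tested. In the Fhl1 intron the deposited lists overlapped, with a rank of 24903 in 1 Aged WT list and of 24712 in 1 Young Mlkl-/- list. Since the rule chose the genes on this contrast, nothing is read from these counts.

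**Figure D1:**
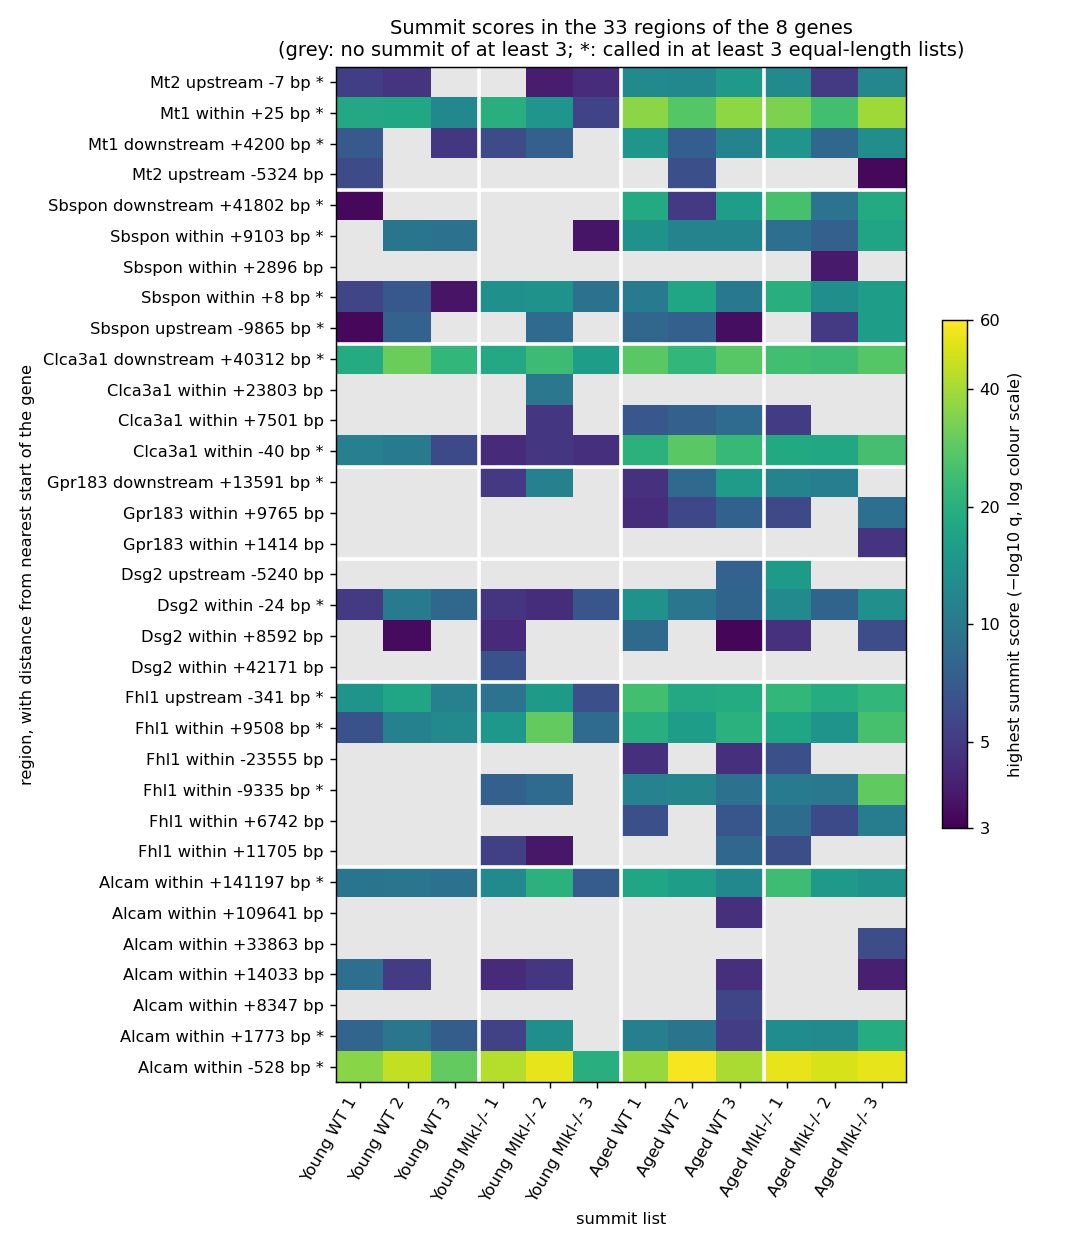
Heat map of the highest summit score (-log10 q, on a log colour scale) of each of the 33 regions (rows, with the distance in bp from the nearest start of the gene) in each of the 12 lists (columns), with grey for no summit of score 3 or more and a star for a region called in at least 3 equal-length lists. The Alcam and Mt1 starts and the region beyond Clca3a1 were called in all 12 lists, while the Sbspon region 41.8 kb from the start was called in 1 young and 6 aged lists.

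The metallothionein genes Mt2 (chr8:94172664-94173568, plus strand) and Mt1 (chr8:94179082-94180327, plus strand) lie side by side and share 3 of their 4 regions. The region with the strongest signal was the start of Mt1 (chr8:94178789-94179396), whose highest summit lay 25 bp inside the first annotated start, in the UTR of exon 1. Its rank was 9776, 10071 and 13199 in the Young WT lists, 9496, 17474 and 23299 in Young Mlkl-/-, 3938, 5930 and 2613 in Aged WT, and 4717, 5949 and 4693 in Aged Mlkl-/-. All 6 aged lists ranked it above all 6 young lists, in each genotype and over both. The mean normal score was 0.88 ± 0.27 in young and 1.53 ± 0.15 in aged lists (SD, n = 6), with an aged-minus-young difference of 0.57 in WT and 0.72 in Mlkl-/-.

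The start of Mt2 (chr8:94172033-94172983) had its highest summit 7 bp before the start, inside exon 1 of the annotated transcript Gm45774, and was the region of largest age difference for both genes. It ranked far lower than the Mt1 start. In Young WT it was called at ranks 31692 and 31326 and not called in the other list, and in Young Mlkl-/- at 44731 and 26034 and not in the other. All aged lists called it, at 19123, 17383 and 14984 in Aged WT and at 20442, 34138 and 23866 in Aged Mlkl-/-. The Aged WT lists lay above all Young WT lists, whereas Aged Mlkl-/- overlapped Young Mlkl-/- through the second aged library. Its age difference was 1.24 in WT and 0.40 in Mlkl-/-, and the difference between these, tested below, did not pass. Another region (chr8:94182968-94183691), 3.11 kb beyond the end of Mt1 and 152 bp into the lincRNA Gm39228, had a call in 4 young and 6 aged lists. There the ranks were 25451 and 25876 in Young WT, 29699 and 31591 in Young Mlkl-/-, 16242, 27048 and 20276 in Aged WT, and 17566, 23275 and 21806 in Aged Mlkl-/-, with age differences of 0.48 in WT and 1.09 in Mlkl-/-. The fourth, intergenic and 5.32 kb before Mt2, was called in 1 Young WT, 1 Aged WT and 1 Aged Mlkl-/- list at ranks 28567, 30522 and 48684 and was not tested.

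**Figure D2:**
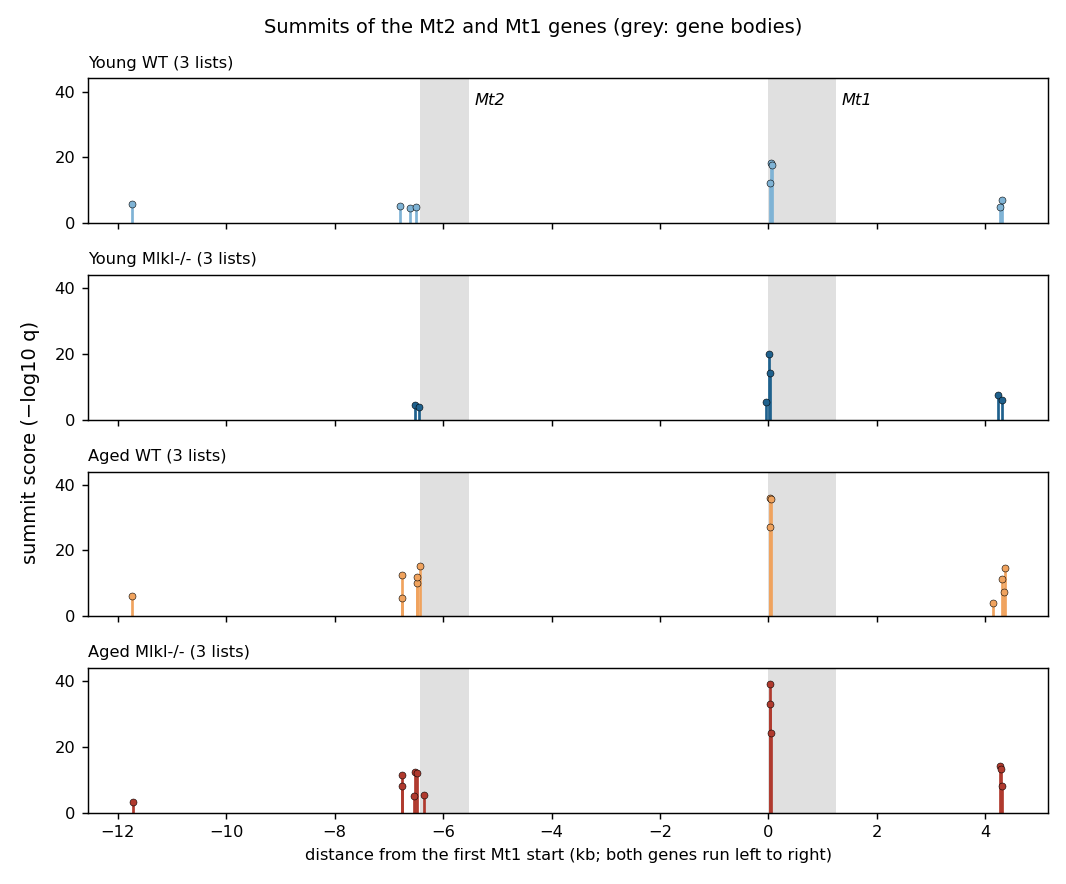
Position of every summit of the 4 Mt2 and Mt1 regions (x, distance in kb from the first Mt1 start) against its score (y, -log10 q), with a panel for each group of 3 lists and gene bodies in grey. The Mt1 start reached scores of 24.1 to 39.2 in the aged lists and 5.47 to 19.9 in the young lists, and the highest score of every group was at that start.

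The sequence under these summits is shown because MREs are the known switch of both genes. MREs were searched as TGCACNC or TGCGCNC on both strands within 100 bp of the highest summit, and are in capitals below. The Mt1 start and the Mt2 start held 5 matches each and the region beyond Mt1 held 3. For the Mt2 start the window was centred on the highest summit of Aged WT 3. The highest summits of the 10 lists that called it lay at -381 to -7 bp from the start, so the window did not cover all of them. At least 1 match was found in 19.6% of all tested regions, at least 3 in 0.805% and at least 5 in 0.0396%, or 15 regions. Each match is printed with 7 bases on each side on the plus strand, from the RefSeq genome GRCm38.p6, and the 5 matches of Mt1 start 16 bp before and 9, 27, 91 and 105 bp after its first annotated start, or 175, 150, 132, 68 and 54 bp before its last one.
Mt1 start site at chr8:94179059-94179079: cccgctgTGCACACtggcgct
Mt1 start site at chr8:94179084-94179104: ggagctcTGCACTCcgcccga
Mt1 start site at chr8:94179102-94179122: cgaaaagTGCGCTCggctctg
Mt1 start site at chr8:94179166-94179186: gcctgctGGGTGCAaaccctt
Mt1 start site at chr8:94179180-94179200: aacccttTGCGCCCggactcg
Mt2 start site at chr8:94172561-94172581: ggagggcGTGTGCAggctctg
Mt2 start site at chr8:94172615-94172635: tcgggtcGTGCGCAggcccag
Mt2 start site at chr8:94172669-94172689: aaagggcGTGTGCAggcggcg
Mt2 start site at chr8:94172688-94172708: cgggggcGCGTGCAtggtgcc
Mt2 start site at chr8:94172722-94172742: gagctttTGCGCTCgacccaa
Region beyond Mt1 site at chr8:94183338-94183358: caccctcTGCACGCggagact
Region beyond Mt1 site at chr8:94183369-94183389: ggaagctTGCGCTCagctctg
Region beyond Mt1 site at chr8:94183445-94183465: gggctatTGCACACagcccag
The 250 bases before the RefSeq start of Mt2 (chr8:94172368-94172617, GRCm38.p6, plus strand) are printed with MREs in capitals and with TGACTCAGC in capitals, a match to both the antioxidant response element TGACNNNGC and the AP-1 motif TGANTCA, which overlap there.
Mt2 upstream: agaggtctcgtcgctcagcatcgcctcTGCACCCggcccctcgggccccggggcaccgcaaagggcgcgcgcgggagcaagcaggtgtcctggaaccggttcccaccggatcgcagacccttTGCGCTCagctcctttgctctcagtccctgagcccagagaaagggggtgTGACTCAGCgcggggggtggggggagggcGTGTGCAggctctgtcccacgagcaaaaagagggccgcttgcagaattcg
In the RefSeq promoter table (300 bases per promoter, GRCm38.p6), the Mt2 promoter held 4 MREs and the Mt1 promoter 3, where 25.7% of 32851 promoters held at least 1, 1.97% at least 3 and 0.518% at least 4. These matches describe the letters and not occupancy by MTF1.

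Sbspon (chr1:15853862-15892722, minus strand) had 5 regions, 4 of them tested. The largest age difference of all 33 regions was at an intergenic region 2.94 kb beyond its 3′ end (chr1:15850667-15851232). Of the young lists only Young WT 1 called it, at rank 37042, whereas all aged lists did, at 12433, 34728 and 13946 in Aged WT and at 8359, 20675 and 15417 in Aged Mlkl-/-. In the equal-length lists no young list and 5 of 6 aged lists called it, and the second Aged WT library overlapped the young ones. Its mean normal score was -0.54 ± 0.017 in young and 0.63 ± 0.60 in aged lists (SD, n = 6), with differences of 0.96 in WT and 1.39 in Mlkl-/-. It is printed below, on the strand of the gene, from chr1:15850820-15851020 (RefSeq GRCm38.p6), with the RUNX motif TGTGGTT and the ETS motif AGGAAGT, here as its reverse strand ACTTCCT, in capitals. It holds no CpG, against a median of 5 in windows of 201 bp around all tested regions.
Sbspon region beyond the 3′ end: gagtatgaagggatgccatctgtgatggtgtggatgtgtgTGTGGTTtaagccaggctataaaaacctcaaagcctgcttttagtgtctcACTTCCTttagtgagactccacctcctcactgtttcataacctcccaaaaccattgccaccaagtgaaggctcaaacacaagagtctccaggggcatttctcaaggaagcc

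The start of Sbspon (chr1:15892351-15893166), with its highest summit 8 bp inside the UTR of exon 1, was called in all 12 lists. It ranked at 29362, 24831 and 30192 in Young WT, at 15258, 18044 and 15104 in Young Mlkl-/-, at 22989, 11659 and 22864 in Aged WT and at 12110, 14393 and 18346 in Aged Mlkl-/-. The mean of the Young WT lists was the lowest of the 4 groups, and its difference from Young Mlkl-/- is tested below. The aged groups overlapped. The age difference was 0.86 in WT and 0.062 in Mlkl-/-. An intronic region 9.10 kb inside the gene was called in 3 young and 6 aged lists, with ranks from 16802 to 27467 in young and from 16752 to 26860 in aged lists and an age difference of 0.57. A region 9.87 kb before the start was called in 3 young and 5 aged lists, at ranks from 22712 to 37042 and from 18084 to 46155, with a difference of 0.17. An intronic region 2.90 kb inside the gene was called in Aged Mlkl-/- 2 alone, at rank 37752.

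Clca3a1 (chr3:144729677-144760977, minus strand) had a single strong region of its own, at its start (chr3:144760330-144761256), where the highest summit lay 40 bp before the GENCODE basic start, in the UTR of exon 1 of the full annotation. It was called in all 12 lists. Its rank was 17068, 18065 and 23205 in Young WT and 34382, 40989 and 25215 in Young Mlkl-/-. In aged lists it was 11052, 5734 and 8493 in WT and 12901, 9757 and 10866 in Mlkl-/-. All aged lists lay above all young lists. Within the young lists the region ranked lower in Mlkl-/- than in WT, a difference tested below. The mean normal score was 0.17 ± 0.58 in young and 1.10 ± 0.17 in aged lists (SD, n = 6), and the difference was 0.60 in WT and 1.26 in Mlkl-/-. The 250 bases before its RefSeq start (chr3:144760978-144761227, GRCm38.p6, printed on the minus strand of the gene) held 3 CpG and no match to the 7 motifs searched, so no base is in capitals. In the 201 bp window of the summit itself there was 1 STAT match (TTCNNNGAA), which 5.18% of tested regions had.
Clca3a1 upstream: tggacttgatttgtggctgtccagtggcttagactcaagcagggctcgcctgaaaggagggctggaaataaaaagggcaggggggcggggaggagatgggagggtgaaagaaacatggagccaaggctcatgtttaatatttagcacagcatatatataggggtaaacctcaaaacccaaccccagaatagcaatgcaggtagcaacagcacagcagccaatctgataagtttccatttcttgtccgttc

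Of the other Clca3a1 regions, the one 9.15 kb beyond its end (chr3:144719234-144720791) lay 194 bp before the start of Sh3glb1, a gene of membrane remodelling, and was called in all 12 lists at ranks from 3721 to 10706. It was the only tested region of the set without a higher mean in aged lists, with a difference of -0.002. An intronic region 7.50 kb inside the gene had no call in Young WT, 1 in Young Mlkl-/- (rank 40989), 3 in Aged WT (ranks 25828 to 31049) and 1 in Aged Mlkl-/- (rank 40233). A region at exon 12, within the UTR, had a call in Young Mlkl-/- 2 alone, at rank 25116. Both had fewer than 3 equal-length calls and were not tested.

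Gpr183 (chr14:121952551-121965195, minus strand) lies within an intron of Ubac2, and no region overlapped the 1 kb on each side of its start. Its tested region (chr14:121951289-121951858), 0.947 kb beyond its 3′ end and also in the Ubac2 intron, was called in no Young WT list, in Young Mlkl-/- at 33249 and 22833, in Aged WT at 40340, 24236 and 14558, and in Aged Mlkl-/- at 22114 and 18066. Each age group held lists with and without the call, so the groups overlapped. The difference was 0.77 in WT and 0.40 in Mlkl-/-. An intronic region 9.77 kb inside the gene had 0 calls among the young and 5 among the aged lists, but at ranks from 29522 to 40769, so that 1 equal-length list kept it and it was not tested. A region 1.41 kb inside the gene was called in Aged Mlkl-/- 3 alone, at rank 45027. The region beyond the 3′ end (chr14:121951504-121951704, RefSeq GRCm38.p6, strand of the gene) is printed because it is the only tested region of this receptor. Its ETS motif AGGAAGT is in capitals.
Gpr183 region beyond the 3′ end: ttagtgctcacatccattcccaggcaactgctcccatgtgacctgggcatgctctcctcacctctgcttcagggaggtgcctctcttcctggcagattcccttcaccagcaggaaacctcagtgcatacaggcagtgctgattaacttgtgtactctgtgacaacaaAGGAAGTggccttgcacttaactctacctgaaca

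Fhl1 (chrX:56731787-56793346, plus strand) had 6 regions, 3 of them tested. The start region (chrX:56730898-56732134), with its highest summit 341 bp before the first start, was called in all 12 lists. It ranked at 13371, 10205 and 14397 in Young WT, at 21160, 16198 and 21090 in Young Mlkl-/-, at 8614, 11018 and 11129 in Aged WT and at 10370, 8928 and 12897 in Aged Mlkl-/-. All Aged Mlkl-/- lists lay above all Young Mlkl-/- lists, while the WT groups overlapped through the second Young WT library. Its difference was 0.14 in WT and 0.43 in Mlkl-/-.

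The largest age difference of Fhl1 was in an intron (chrX:56769781-56770368), 9.34 kb before the nearest internal start. No Young WT list and 2 of 3 Young Mlkl-/- lists called it, at ranks 24712 and 28331. Young WT 3 had a summit of score 2.95 in this region, just under the minimum of 3. All aged lists called it, at 20918, 17770 and 24903 in WT and at 24111, 19665 and 8619 in Mlkl-/-. On equal-length lists the lowest aged normal score was 0.38 and the highest young one 0.37, so all aged lists were above all young lists by a narrow margin. The difference was 1.07 in WT and 0.69 in Mlkl-/-. A second intronic region, 9.51 kb inside the gene, was called in all 12 lists at ranks from 5831 to 27481 and differed by 0.35 in WT and by -0.081 in Mlkl-/-. Of the regions not tested, one 6.74 kb inside an internal start had no young call, 2 calls in Aged WT (ranks 33530 and 32951) and 3 in Aged Mlkl-/- (ranks 26731 to 30722). Another, 23.6 kb before that start, was called in 0 young lists, at 40453 and 43476 in Aged WT and at 35023 in Aged Mlkl-/-. A region in exon 7 was called at 30958 and 44837 in Young Mlkl-/-, at 28029 in Aged WT and at 37192 in Aged Mlkl-/-. Fhl1 is on the X chromosome, which held 2.32% to 2.53% of the summits of the young lists and 2.52% to 2.64% of those of the aged lists, and the part of this in its ranks was not tested. The intronic region of largest difference (chrX:56770002-56770202, RefSeq GRCm38.p6, plus strand) held no CpG, and its match to the GATA motif AGATAA, on the reverse strand as TTATCT, is in capitals.
Fhl1 intronic region: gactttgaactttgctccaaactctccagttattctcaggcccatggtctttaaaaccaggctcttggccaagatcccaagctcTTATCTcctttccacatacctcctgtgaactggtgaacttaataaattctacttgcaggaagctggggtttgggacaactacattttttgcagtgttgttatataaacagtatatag

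Alcam (chr16:52248996-52454074, minus strand) had 7 regions, of which 3 were tested. Its start region (chr16:52452895-52453654), with the highest summit 528 bp before a start and in the UTR of exon 1, ranked highest of the 33 regions in every list. The ranks were 2361, 996 and 3353 in Young WT, 1416, 519 and 5640 in Young Mlkl-/-, 3383, 482 and 1584 in Aged WT and 761, 406 and 1787 in Aged Mlkl-/-. All groups overlapped, and the age difference was 0.15 in WT and 0.29 in Mlkl-/-. The region of largest difference (chr16:52450261-52451005), intronic and 1.77 kb inside the gene, ranked at 22748, 19161 and 20337 in Young WT, at 30956 and 18962 in Young Mlkl-/- with no call in the other list, at 21519, 21758 and 39508 in Aged WT and at 19697, 15379 and 15023 in Aged Mlkl-/-. The difference was -0.40 in WT and 0.88 in Mlkl-/-. The WT value rested on Aged WT replicate 3, which was not called at equal length, and was -0.037 without it. The difference between the genotypes in age change did not pass the test (adjusted p = 0.963 in limma). The remaining tested region, 141.2 kb inside the gene, was called in all 12 lists at ranks from 9038 to 20646 and differed by 0.12. Of 4 further intronic regions, one 14.0 kb inside the gene had 2 calls in each young group and 1 in each aged group, at ranks from 20503 to 46736. The others, 109.6, 33.9 and 8.35 kb inside, were called in 1 aged list each, at ranks 40972, 38758 and 38029.

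Dsg2 (chr18:20558074-20604521, plus strand) had 4 regions, of which only the start was tested (chr18:20557814-20558893, highest summit 24 bp before the nearest start, in the UTR of exon 1). It was called in all 12 lists, at ranks 32287, 17915 and 18415 in Young WT, 33567, 43426 and 20146 in Young Mlkl-/-, 17114, 21356 and 28825 in Aged WT and 20289, 23958 and 21225 in Aged Mlkl-/-. Young and aged lists overlapped in both genotypes. The difference was 0.23 in WT and 0.69 in Mlkl-/-, and 0.46 over both. With the presence of Y-linked summits as a covariate it was -0.12, the only start or most different region of the set whose sign turned under that term. The region 5.24 kb before the start was called in 1 Aged WT list at rank 29202 and in 1 Aged Mlkl-/- list at 16327. One intronic region 8.59 kb inside was called in 2 young and 4 aged lists at ranks from 26719 to 48609, and one 42.2 kb inside in Young Mlkl-/- 1 alone at rank 27570.

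**Figure D3:**
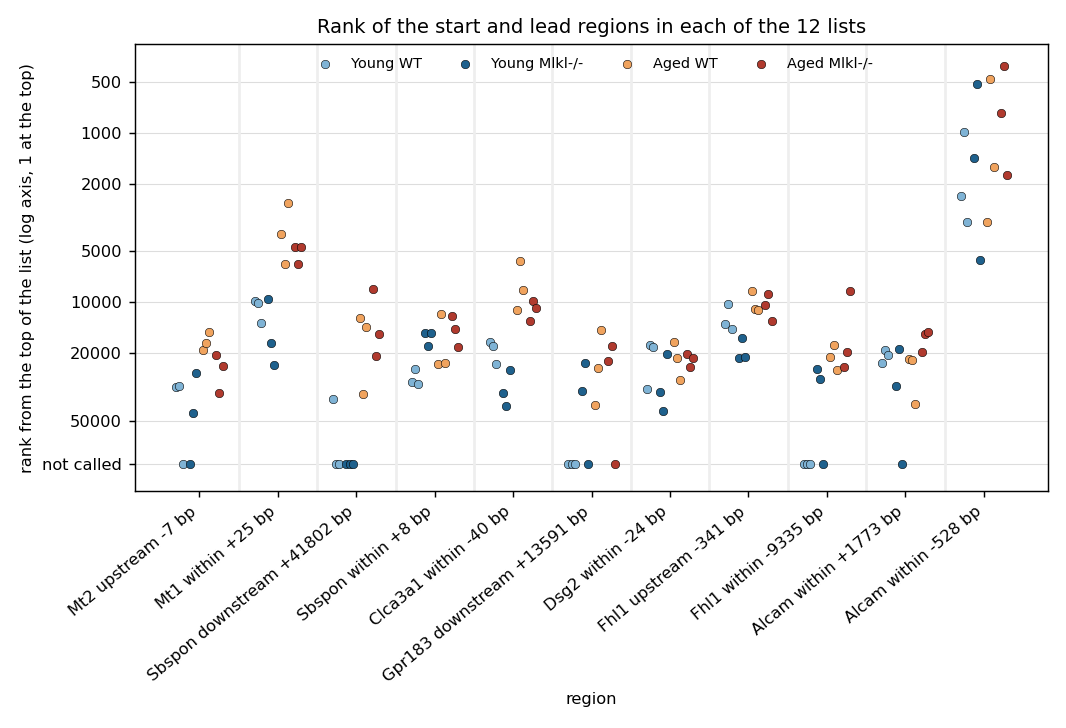
Rank from the top of the list (y, log axis with 1 at the top; the lowest line marks lists without a call) of the start region and the region of largest age difference of each gene (x), with a point for each of the 3 lists of the 4 groups. At the Mt1 and Clca3a1 starts all 6 aged points lie above all 6 young points, and at the Alcam start all groups overlap.

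Across the 17 tested regions the aged mean was higher in both genotypes for 14. The exceptions were the region before Sh3glb1, lower in WT, the Alcam intronic region at 1.77 kb, lower in WT, and the Fhl1 intronic region at 9.51 kb, lower in Mlkl-/-. How many of all tested regions were higher in both genotypes was not counted. The rule chose the genes on the age contrast, so nothing is read from the count of 14. The median difference was 0.38 in WT and 0.43 in Mlkl-/-. All 3 aged lists lay above all 3 young lists for 5 regions in WT (7.95% of all tested regions) and for 7 in Mlkl-/- (8.72%). The regions of WT were the starts of Mt1, Mt2, Sbspon and Clca3a1 and the Fhl1 intronic region at 9.34 kb. Those of Mlkl-/- were the starts of Mt1, Clca3a1 and Fhl1, the regions beyond Mt1 and Sbspon, and an intron each of Sbspon and Fhl1. The mean normal score of the regions of largest difference was between -0.42 and -0.028 in the young lists and between 0.50 and 0.67 in the aged lists, a separation that the choice of regions fixes. With list length as a covariate the differences of the 11 start or most different regions ranged from 0.061 (both Alcam regions) to 1.20 (Clca3a1 start). The aged estimate was higher for 16 of the 17 tested regions with that term and for 15 with Y-linked summits as a covariate. The shares of all regions under these fits were not counted, and nothing is read from these counts either.

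**Figure D4:**
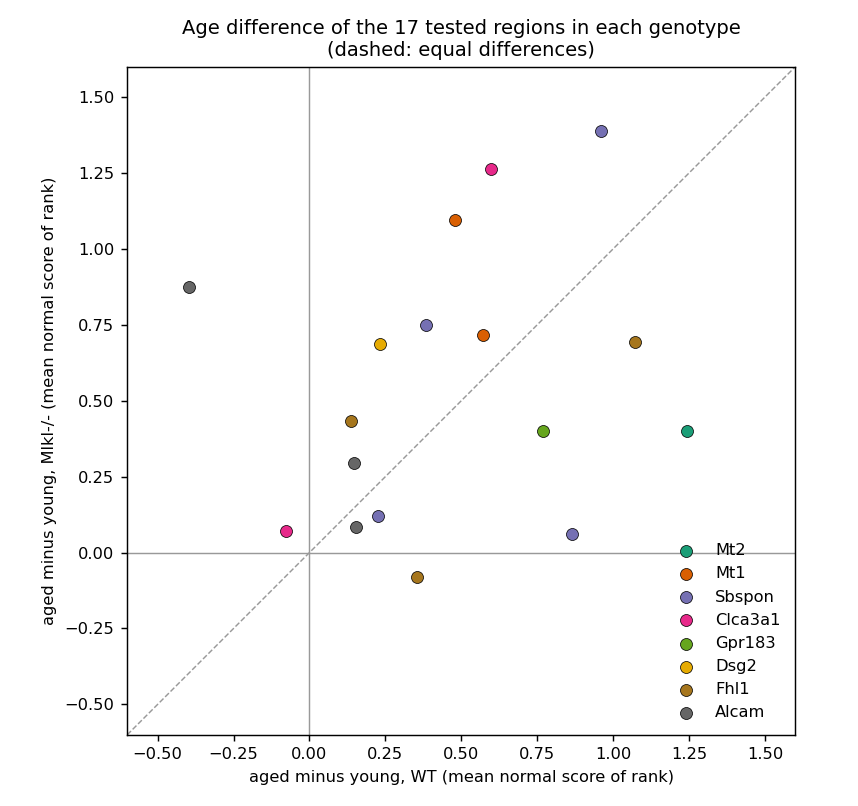
Difference in mean normal score of rank, aged minus young, of the 17 tested regions in WT (x) and in Mlkl-/- (y), coloured by gene, with a dashed line of equal differences. Above and to the right of 0 lie 14 regions, the Alcam intronic region lies at -0.40 and 0.88, and the Mt2 start lies farthest to the right at 1.24 in WT and 0.40 in Mlkl-/-.

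Whether the loss of Mlkl changed accessibility at these genes was tested with limma across all 37893 regions, with Benjamini-Hochberg adjustment and a threshold of adjusted p under 0.01. None of the 17 regions passed at 3 months, at 18 months, over both ages, or for the difference in age change between the genotypes, and 0 of all regions tested (0%) passed any of the 4 comparisons. The region beyond Sbspon could not pass at 3 months, since no young equal-length list called it. At an unadjusted p under 0.05 the 17 regions gave 2 at 3 months, 0 at 18 months, 2 over both ages and 1 for the difference in age change, beside 5.36%, 5.09%, 6.21% and 4.78% of all regions. A difference missing the threshold does not show that the genotypes were alike, since the standard errors of single regions were between 0.17 and 0.41 at each age.

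The largest of these differences were at 2 starts in young mice and ran in opposite directions. At the Sbspon start, Young Mlkl-/- lay above Young WT by 0.98 ± 0.29 (SE; 0.75 ± 0.076 against -0.23 ± 0.54, mean ± SD, n = 3 each), with a limma adjusted p of 0.554. At 18 months the difference there was 0.18 ± 0.29 with an adjusted p of 0.943. At the Clca3a1 start, Young Mlkl-/- lay below Young WT by -0.85 ± 0.26 (-0.25 ± 0.53 against 0.60 ± 0.15), with a limma adjusted p of 0.576, and the difference was -0.19 ± 0.26 (adjusted p = 0.926) at 18 months. The ranks of the young genotypes did not overlap at either start, but neither start passed the test. How many of all regions separate in this way was not counted, so nothing is read from it. The Alcam intronic region at 1.77 kb had the largest difference in age change, 1.27 ± 0.51 (adjusted p = 0.963 in limma), and the Mt2 start the largest in the other direction, -0.84 ± 0.51 (adjusted p = 0.965). For the Mt1 start the genotype difference was -0.27 ± 0.18 at 3 months and -0.13 ± 0.18 at 18 months.

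**Figure D5:**
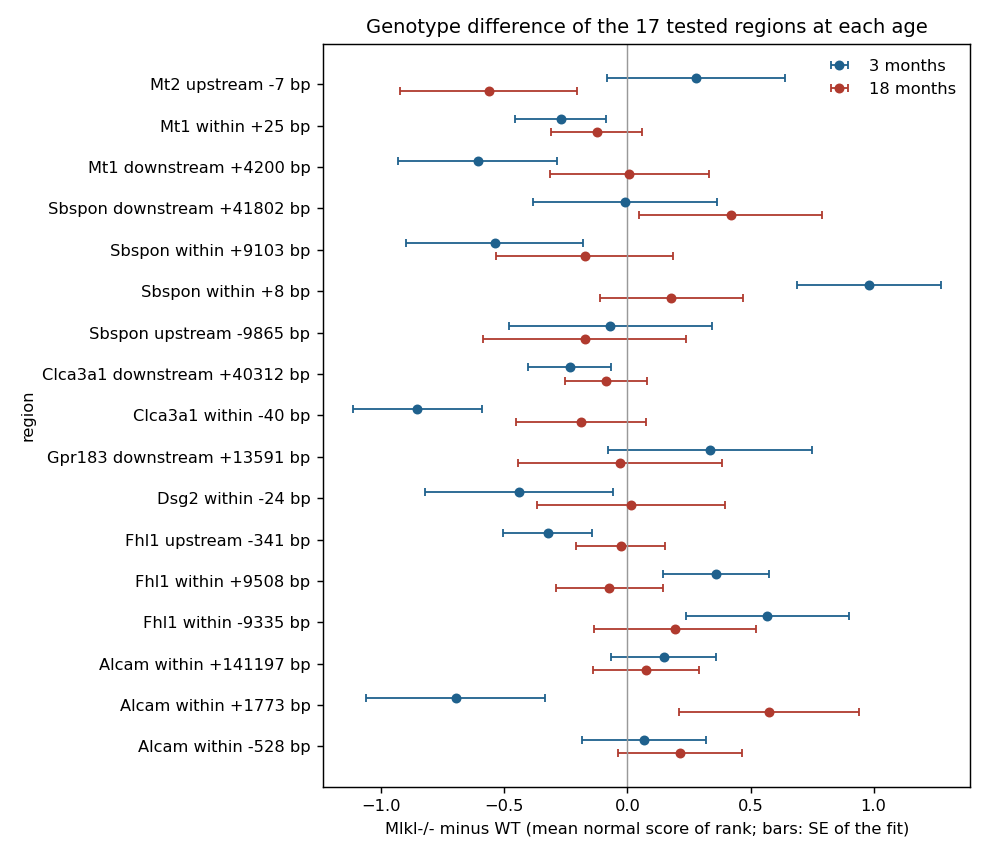
Difference in mean normal score, Mlkl-/- minus WT, of the 17 tested regions at 3 months (blue) and 18 months (red), with bars for the SE of the fit. The Sbspon start at 0.98 and the Clca3a1 start at -0.85 lie farthest from 0, both at 3 months, and none passed adjusted p under 0.01.

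The 17 tested regions shared no motif among the 7 searched within 100 bp of the summit, on both strands. MREs were found in 6 of 17, against 19.6% of all tested regions. The 6 were the 3 metallothionein regions and the starts of Sbspon, Fhl1 and Dsg2, with 2 matches at Sbspon and at Fhl1 and 1 at Dsg2. The ETS motif AGGAAGT was found in 3 regions against 16.1% of all tested regions, and the RUNX motif TGTGGTT in 2 against 10.5%. The antioxidant element TGACNNNGC was in 2 against 12.5%, STAT TTCNNNGAA in 1 against 5.18% and the GATA factor motif, with the letters AGATAA, in 1 against 8.56%. The AP-1 motif TGANTCA was in none of the 17 windows and in 10.1% of all tested regions. Most starts were rich in CpG: windows of 201 bp held 17 and 21 CpG at the Mt2 and Mt1 starts, 22 at Sbspon, 30 at Fhl1, 17 at Alcam and 23 at Dsg2, above the upper quartile of 13 over all tested regions, while the Clca3a1 start held 2. Among the regions of largest difference away from starts, those of Sbspon, Gpr183 and Fhl1 held 0, while that of Alcam held 10. Over all tested regions the median was 5 and the lower quartile 2.

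Genes related to the set by function were read at their start regions. Of 11 other genes of metal handling, 10 had a tested start region and 0 passed the limma age test at adjusted p under 0.01 in either direction, where 2.72% of all regions did (1029 of 37893). That share depended on the fit, with 60 regions called when list length was a covariate, 322 with Y-linked summits as a covariate and 188 of 34238 in the 9 libraries with a tag in their file name. At an unadjusted p under 0.05 there were 2 of the 10, against 22.1% of all regions. The median age difference of the 10 was 0.058, and that of Mt3, the neighbouring metallothionein of the brain, was 0.44 (adjusted p = 0.317). Of 5 tested starts in a list of oxysterol genes related to Gpr183, 0 passed in limma and 1 had an unadjusted p under 0.05. Their median was 0.075, and the largest value, 0.58, was at Cyp39a1, an oxysterol hydroxylase (adjusted p = 0.0517 in limma). None of 7 tested starts of thrombospondin-type matrix genes passed, with a median of -0.13 and the largest difference, -0.32, at Spon2 (adjusted p = 0.504). The count was 0 of 6 for LIM proteins and partners, with a median of -0.11 and -0.46 at Crip2 (adjusted p = 0.237), and 0 of 5 for desmosome genes, with a median of -0.021 and 0.59 at Dsc2, a desmosomal cadherin (adjusted p = 0.206). At an unadjusted p under 0.05 in limma these counts were 0, 0 and 1, so that each of these lists and the oxysterol list was at or below the 22.1% of all regions.

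Among immunoglobulin-family adhesion genes 3 of 9 starts had an unadjusted p under 0.05 in limma, where 22.1% of all regions did. All 3 had a lower mean in aged lists, and the count was not tested against that share. The largest difference was at Icam1, a leukocyte adhesion receptor, with -0.76 ± 0.25 (SE, adjusted p = 0.0686), and Pecam1, an endothelial and platelet adhesion molecule, was at -0.51 ± 0.13 (adjusted p = 0.0270). At adjusted p under 0.01, 1 of 9 passed in limma, where 2.72% of all regions did. It was Cd47, the "do not eat me" signal, which was lower in aged lists by -0.76 ± 0.15 (SE, limma adjusted p = 0.00504). This call was lost with list length as a covariate (-0.44, adjusted p = 0.212), without the abundance trend in limma (adjusted p = 0.0222), in the 9 libraries with a tag in their file name (adjusted p = 0.0121) and in 9 of the 12 fits that left out 1 library, where the difference lay between -0.89 and -0.63 and the highest adjusted p, 0.0211, came without Aged WT replicate 1. It was kept without Young Mlkl-/- replicate 2 (adjusted p = 0.00146), Young Mlkl-/- replicate 3 (adjusted p = 0.00922) or Aged WT replicate 2 (adjusted p = 0.00386). None of the 7 other Clca genes had a tested start region. Of 12 further genes known to mark aged HSCs, 9 had a tested start. Of these 9, 4 had a higher mean in aged lists and 0 passed in limma, also at an unadjusted p under 0.05. Vwf, the platelet adhesion factor, was at 0.47 (limma adjusted p = 0.420) and Selp, the platelet selectin, at -0.56 (adjusted p = 0.241). The ageing genes chosen for their aged-against-young rank difference are the set itself and were left out of this list. The choice therefore shaped these counts, and nothing is read from them. Of the 51 tested starts of these related genes, 0 passed a genotype comparison in limma. The counts at an unadjusted p under 0.05 were 2 at 3 months, 2 at 18 months, 3 over both ages and 1 for the difference in age change. The shares of all regions were 5.36%, 5.09%, 6.21% and 4.78%.

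The rule's edge at 10 kb fell as follows. Just inside it lay the region 9.55 kb before Sbspon (difference 0.17), the region 9.40 kb beyond Mt2 that is also the region beyond Mt1 (0.79), and the region 8.89 kb beyond Clca3a1 at Sh3glb1 (-0.002). Just outside lay a region 10.5 kb from Alcam, called in 1 young and 2 aged lists and not tested, a region 10.7 kb beyond Mt1, called in all 12 lists (0.42), and a region 13.2 kb from Gpr183, called in 2 aged lists and not tested.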

How the data were processed

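ATAC-seq was measured in 12 HSC libraries, 3 in each of 4 groups. Per the labels and the study's methods, the authors aligned 70 bp single reads to mm10 with Bowtie2 2.5.3 and called peaks in each library separately with MACS2 2.2.7.1. The deposited files are lists of summits with the −log10 of a q-value, and the depth of a library bears on its scores. The lowest scores were near 2, and summits of at least 3 (a q-value of at most 0.001, which the study used) were kept. No read counts were in the files, so the count model of the study was replaced by ranks.

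Windows of 250 bp on each side of summits were merged over all lists, each list was reduced to its 35714 best summits, and ranks within lists were turned into normal scores. Regions called in at least 3 equal-length lists were fitted in limma 3.58.1 (R 4.3.3) with 4 group means. Gene bodies and starts were those of the GENCODE M21 basic annotation, and exons and UTRs those of the full one. For overlap between groups, regions not called shared 1 value. Of each gene the start region (highest mean rank within 1 kb of a start) and the tested region of largest absolute age difference were given in full, and of the related genes those with the largest absolute age difference in a list or a passed test; Pecam1 and Vwf were named after their values were seen. The script was tested on simulated data. Alternatives covered score minimum, list length, window, flank, rank scale, filter, threshold, covariates, the replicate number and each library left out. The members and the gene lists were chosen with earlier results of these data known. Replicates are separate pools of cells per the study's methods, and with 3 per group p-values measure the spread between such pools.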

Additional observations from a re-analysis of the deposited data

Results flagged for a closer look

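Below the minimum of 3, the lists held 10 summits within the windows of the 8 genes, 7 in aged and 3 in young lists, with scores from 2.38 to 2.95. All but 1 fell inside regions already described. The exception was a summit in an Fhl1 intron with a score of 2.71 in the second Aged Mlkl-/- library. It was set aside for attention because it lies below the score minimum of the main comparisons and because no young list had such a summit outside the regions. A single summit of this score has no replicate.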

How the results depend on the processing

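The number of the set's regions that passed a genotype comparison was 0 at 3 months, at 18 months, over both ages and for the difference in age change under all alternatives run, including adjusted p under 0.05, and also 0 with each library left out. The number with a higher aged mean was 16 of 17 and lay between 16 and 17 with each library left out, and between 13 of 13 (2 kb flanks) and 22 of 27 (no filter on lists) or 21 of 25 (unequal lengths) otherwise. The share of all regions, 49.0%, was counted only for the main settings. The rule chose the genes on this contrast, so nothing is read from these counts. Signs turned for the single differences that follow. For Mt2 at 3 months the genotype difference was -0.009 with scores of at least 5 and -0.15 with lists of unequal length, and -0.022 to 0.44 with a library left out. For the Alcam start at 3 months it was -0.41 as a percentile, -0.17 in the 9 libraries with a tag in their file name, -0.056 with Y-linked summits as a covariate and -0.17 to 0.35 with a library left out. At the region beyond Sbspon no young equal-length list held a call, so the 3-month values compare only shared lowest ranks. They were 0.0031 in those 9 libraries and -0.022 to 0.0031 with a library left out. The genotype difference there was 0.42 at 18 months with all libraries and -0.055 to 0.68 with a library left out. At 18 months it was -0.14 in the 9 libraries and -0.11 to 0.12 with a library left out for Dsg2, -0.42 to 0.35 beyond Gpr183, -0.082 to 0.037 at the Fhl1 start and -0.030 to 0.35 in the Fhl1 intron. The Dsg2 age difference, 0.46 over both genotypes, was -0.12 with Y-linked summits as a covariate, and the cause of these turns was not tested. The fit of only the groups compared was run for the comparisons at 3 and at 18 months, since the others use all groups. Within 50 bp of the summit, in place of 100 bp, MREs were in 4 and RUNX motifs in 0 of the 17 regions. Of all tested regions, 10.2% had an MRE and 7.06% a RUNX motif within 50 bp. The alternatives for Cd47 were added after seeing the data.

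Replicate numbers did not pair the libraries. Deviations of same-numbered libraries correlated between -0.30 and 0.13, those of differently numbered ones between -0.18 and 0.31, and 4 of 12 libraries correlated best with their own number. With the replicate number as a block, 0 regions of the set passed any genotype comparison and 16 of 17 had a higher aged mean.

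The lists give no depth, so it is unknown how far a region's absence from a list reflects few reads. A region not called carries a shared lowest rank, which hides differences among regions below the list's end. The filter of at least 3 equal-length lists left out 16 of the 33 regions. Of these, 6 were called in no equal-length list and 10 in 1 or 2.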

Other observations

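The 5 regions outside the 8 genes whose normal scores followed the mean of the set's regions of largest difference most closely over the 12 lists were near Tas2r119, Rgs9, Gm29327, Gm38147 and Fhl2, at distances from 10.0 to 27.4 kb. Pearson's r was between 0.968 and 0.969 over 12 lists that fall into a young and an aged cluster, so it is given as a description. In the equal-length lists each had no young call and 6 aged calls. Fhl2 encodes another member of the LIM protein family of Fhl1, and the region, intergenic and 27.4 kb from it, lay at chr1:43224084-43224676.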
